A study of Homo sapiens with 20 samples.

Results

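Untreated A375 cells were compared with untreated SKMEL28 cells, both labelled as human melanoma lines, over all genes of their RNA-seq libraries. The comparison uses 4 of the 20 libraries of the series, A375 untreated replicates 1 and 2 and SKMEL28 untreated replicates 1 and 2, taken by the line and treatment named in their labels. The series covers 5 cancer cell lines, each without drug and after 72 h with torkinib, an inhibitor of the kinase MTOR, and was designed around DNA repair genes. A375 was grown in DMEM and SKMEL28 in MEM, both with 10% fetal bovine serum, so the line and its medium cannot be told apart. No culture time is given for the untreated cells, and each line comes from a single tumour, so the values describe these lines and not melanoma at large.

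Melanoma arises from melanocytes, the pigment cells that derive from the neural crest. Their identity rests on the transcription factors SOX10, PAX3 and MITF, and MITF switches on the enzymes and structural proteins of the melanosome, the organelle in which melanin is made. Melanoma lines are known to differ in how much of this programme they keep: melanocytic lines express MITF and its targets, while less differentiated lines express receptor kinases such as AXL and EGFR together with secreted factors and matrix genes.

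The libraries held 6799559 and 7481714 counted reads in A375 and 5201967 and 8756448 in SKMEL28. Levels below are normalised CPM, that is counts scaled to library size with TMM factors. Replicate 1 comes before replicate 2, with n = 2 libraries per line throughout. Levels are not divided by gene length, so levels of different genes are not compared. The ± value is an SE of a log2 fold change, derived from the F statistic of its test. It can be smaller than the counting error where a line had few counts, as for DCT, with 6 in A375. The labels do not say whether replicates were separate cultures. The p-values therefore rest on how far replicate libraries differed, and that spread may be technical. Genes were taken as markers of 94T778, the liposarcoma line of the same series, by CPM of library totals. They had at least 30 CPM in both untreated 94T778 libraries. They also had to be under 1 CPM in untreated SKMEL28, SKBR3 and AU565 and in the torkinib libraries of A375. A375 replicate 1 carried counts of such genes. Over 31 such markers its level was a median 2.22% of that in 94T778, with counts for 31 of 31, against 0.239% and 22 of 31 in A375 replicate 2. A gene was called exposed where that share of its 94T778 level exceeded 25% of its level in A375 replicate 1. This held for 403 of the tested genes, whose values are given with replicate 2 alone beside them. The share varied between markers: A375 replicate 1 had 24.85 CPM of IL6, against 153.5 in 94T778, and 0.1471 of KRTAP2-3, against 56.04. The rule uses the median, so it can miss genes with a larger share. Mitochondrial transcripts took 3.17 and 3.56% of counts in A375 and 5.27 and 6.58% in SKMEL28. MALAT1, a transcript kept in the nucleus, had 485 and 506 CPM of library totals in A375, against 99.96 and 126 in SKMEL28. The part of both in the differences below was not tested.

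**Figure D1:**
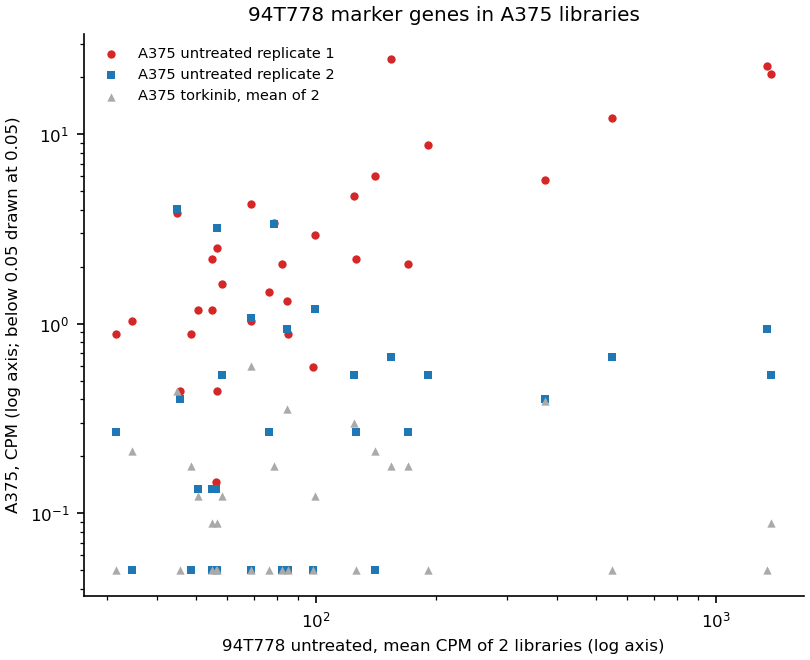
Level of 31 marker genes of the 94T778 line in A375 libraries (vertical axis, CPM of library totals, log scale) against their level in untreated 94T778 (horizontal axis, mean CPM of 2 libraries, log scale). Each marker is drawn once for A375 untreated replicate 1, once for replicate 2 and once for the mean of the torkinib libraries. Markers were chosen to be under 1 CPM in the torkinib libraries. Most points of replicate 1 lie above those of replicate 2.

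Of 16698 genes tested, 11463 (68.6%) differed between untreated A375 and SKMEL28 at an adjusted p under 0.05 by edgeR's quasi-likelihood test, 6181 (37.0%) higher and 5282 (31.6%) lower in A375. A second test asked for a difference larger than 2-fold, and 4780 genes (28.6%) passed it, 2622 (15.7%) higher and 2158 (12.9%) lower. The split of these calls depended on the scaling: 54.9% were higher in A375 with TMM factors and 65.0% (3199 higher, 1722 lower) with library totals, which moved the median of all genes by 0.21 on the log2 scale. The median log2 fold change over all tested genes, A375 over SKMEL28, was 0.09, with quartiles of -0.69 and 1.00. Counts within lists below are to be read against the shares of all tested genes given here. The libraries of the lines did not overlap in 81.9% of tested genes, so that a lack of overlap is the rule here. In 139 genes beyond 2-fold A375 had no count, and in 515 SKMEL28 had none; fitted changes of such genes depend on the prior count, and bounds are given for them.

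**Figure D2:**
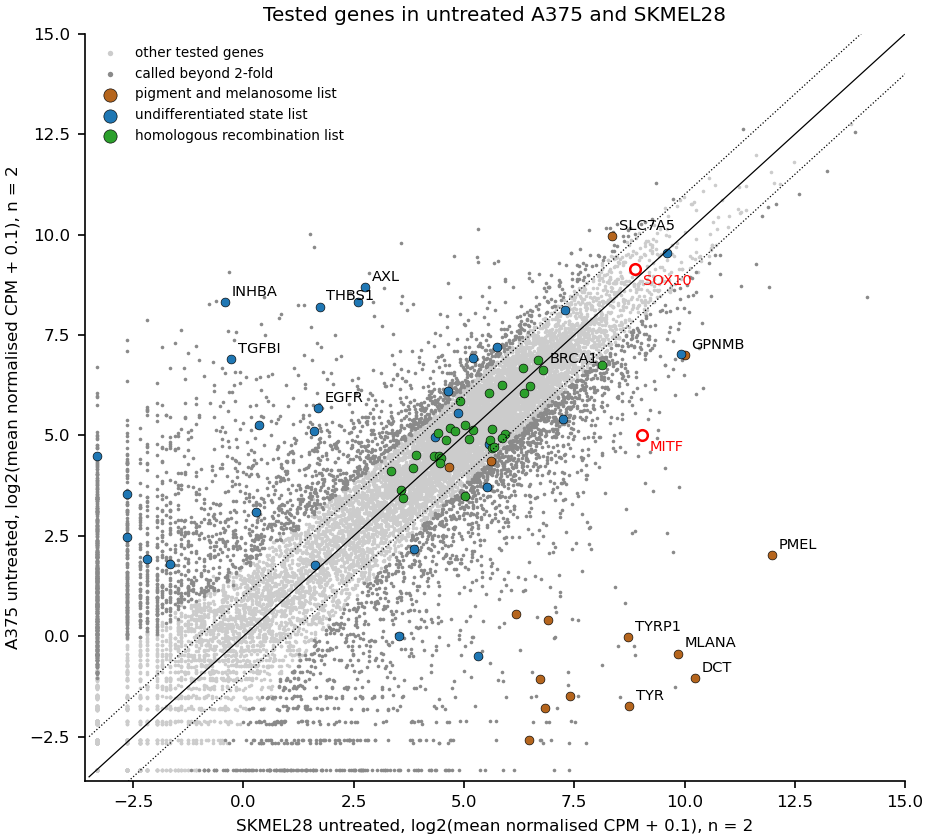
Level of each tested gene in untreated A375 (vertical axis) against untreated SKMEL28 (horizontal axis), both as log2 of the mean normalised CPM of 2 libraries plus a small constant. Dark grey points were called beyond 2-fold; the solid line marks equal levels and the dotted lines a 2-fold difference. Members of the pigment list lie mostly at the lower right, with SLC7A5 above the line of equal levels. Members of the undifferentiated list lie mostly at the upper left, and homologous recombination genes along the diagonal.

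A375 had low levels of the transcription factors of the melanocyte lineage, with 1 exception. Of 9 melanocyte regulators tested, 6 were lower and 2 higher in A375, and their median log2 fold change was -2.21 against 0.09 for all tested genes. MITF, the master regulator of the pigment programme, stood at 30.6 and 34.1 CPM in A375, against 502 and 540.0 in SKMEL28 (log2 fold change -4.01 ± 0.11, edgeR adjusted p = 9.27e-28). SOX10, the neural crest factor that acts above MITF, stood at 539.8 and 599 CPM in A375, against 472 and 461 in SKMEL28, a small difference (log2 fold change 0.29, edgeR adjusted p = 0.00357) that was not called without A375 replicate 2. The libraries of the lines overlapped in neither gene, but the gap was narrow in SOX10 and wide in MITF.

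PAX3, a partner of SOX10 at the MITF promoter, stood at 17 and 17.8 CPM in A375, against 80.5 and 80.8 in SKMEL28 (log2 fold change -2.21 ± 0.12). EDNRB, the endothelin receptor of melanoblasts, stood at 25.2 and 28.2 CPM in A375, against 119 and 121 in SKMEL28 (log2 fold change -2.17 ± 0.11). IRF4, which acts with MITF on the tyrosinase gene, had 3 counts in A375 and stood at 0.264 and 0.119 CPM in A375, against 135 and 140.3 in SKMEL28, so that the ratio of SKMEL28 over A375 was 636 (exact 95% binomial interval 217 to 3089). The AP-2 factors of the neural crest went opposite ways: TFAP2A stood at 8.71 and 8.71 CPM in A375, against 149 and 148 in SKMEL28 (log2 fold change -4.08 ± 0.11). TFAP2B stood at 187 and 202 CPM in A375, against 0.782 and 0.597 in SKMEL28 (log2 fold change 8.15 ± 0.18). ERBB3, the neuregulin receptor that SOX10 activates, was higher in A375, at 608 and 605 CPM in A375, against 156 and 162 in SKMEL28 (log2 fold change 1.93 ± 0.08). Both libraries of a line lay close together in each of these genes.

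The pigment genes separated the lines most. Of 15 pigment enzymes and melanosome proteins, 14 were lower in A375, 13 of them beyond 2-fold, and 1 was higher, with a list median of -8.88. The promoters of the genes for tyrosinase and its relative TYRP1, the cation channel TRPM1, and the survival genes BIRC7 and BCL2A1 are shown, since these genes stood at or near 0 in A375 and all hold the letters CATGTG, the core of the E-box that MITF binds. Sequences are the 250 bases before the gene start in RefSeq (build GRCh38.p14), 5′ to 3′ on the gene's strand, with CATGTG or TCATGTG on either strand and CACGTG in capitals; TCATGTG contains CATGTG, and CACATG is CATGTG read on the other strand.
TYR (chr11:89177625-89177874, plus strand): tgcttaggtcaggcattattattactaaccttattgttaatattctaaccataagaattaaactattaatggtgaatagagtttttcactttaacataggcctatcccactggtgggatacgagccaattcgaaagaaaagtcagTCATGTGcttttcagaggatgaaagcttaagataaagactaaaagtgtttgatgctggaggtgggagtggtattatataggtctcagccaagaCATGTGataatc
TYRP1 (chr9:12693135-12693384, plus strand): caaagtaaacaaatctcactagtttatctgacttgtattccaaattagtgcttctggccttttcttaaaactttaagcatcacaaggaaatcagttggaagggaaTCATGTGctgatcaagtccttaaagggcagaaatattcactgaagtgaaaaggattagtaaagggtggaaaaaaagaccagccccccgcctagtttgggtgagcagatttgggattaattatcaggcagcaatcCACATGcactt
TRPM1 (chr15:31161161-31161410, minus strand): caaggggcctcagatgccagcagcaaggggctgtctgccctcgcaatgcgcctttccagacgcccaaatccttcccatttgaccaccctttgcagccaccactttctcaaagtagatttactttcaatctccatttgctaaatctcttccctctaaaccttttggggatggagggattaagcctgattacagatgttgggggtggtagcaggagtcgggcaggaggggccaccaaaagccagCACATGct
BIRC7 (chr20:63235655-63235904, plus strand): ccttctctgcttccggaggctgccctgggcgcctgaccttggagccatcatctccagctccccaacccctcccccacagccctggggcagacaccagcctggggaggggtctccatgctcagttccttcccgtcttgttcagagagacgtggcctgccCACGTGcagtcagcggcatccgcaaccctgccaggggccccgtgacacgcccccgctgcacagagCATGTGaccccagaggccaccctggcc
BCL2A1 (chr15:79971197-79971446, minus strand): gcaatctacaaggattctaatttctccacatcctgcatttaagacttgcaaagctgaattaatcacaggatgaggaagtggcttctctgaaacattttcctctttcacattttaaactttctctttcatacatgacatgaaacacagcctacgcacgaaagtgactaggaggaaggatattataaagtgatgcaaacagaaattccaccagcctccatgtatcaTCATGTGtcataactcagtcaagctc

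In the TYR promoter TCATGTG began 105 bases and a further CATGTG 12 bases before the start, and in TYRP1 the same pair began 145 and 11 bases before it. TRPM1 held CATGTG 8 bases before the start, BCL2A1 TCATGTG 26 bases before it, and BIRC7 CATGTG 27 and CACGTG 92 bases before it. Of the 15 pigment genes 13 matched the promoter table (PMEL and SLC45A2 had no entry); 7 of the 13 (53.8%) held CATGTG and 5 (38.5%) TCATGTG, counting both strands, against 9.54% and 2.58% of all 27305 promoters of that length. The promoters of DCT and MLANA, which were also near 0 in A375, held no CATGTG in this window. The GPNMB promoter held TCATGTG 123 and 62 bases before the start, and this gene kept a clear level in A375, as given below. Among the undifferentiated genes described below, 1 of 22 matched promoters (4.55%) held CATGTG and 0 of 22 held TCATGTG. These matches describe letters in a window and say nothing of binding.

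The enzymes of melanin synthesis were near 0 in A375. TYR, tyrosinase, which starts melanin synthesis, had 3 counts in A375 and stood at 0.396 and 0 CPM in A375, against 419.6 and 439 in SKMEL28; the ratio of SKMEL28 over A375 was 1986 (exact 95% binomial interval 679 to 9633). DCT, dopachrome tautomerase, stood at 0.528 and 0.239 CPM in A375, against 1165 and 1254 in SKMEL28 (log2 fold change -11.58 ± 0.20, edgeR adjusted p = 2.70e-33). TYRP1, the tyrosinase-related protein, stood at 0.923 and 0.836 CPM in A375, against 411 and 434 in SKMEL28 (log2 fold change -8.88 ± 0.16). In all of them both A375 libraries lay below 1 CPM and both SKMEL28 libraries above 400.

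Structural proteins and channels of the melanosome followed the same order. PMEL, which forms the fibrils on which melanin is laid down, stood at 6.33 and 1.55 CPM in A375, against 4218 and 3907 in SKMEL28 (log2 fold change -10.04 ± 0.24). MLANA, a melanosome membrane protein used as a diagnostic marker, stood at 0.923 and 0.358 CPM in A375, against 928 and 928 in SKMEL28 (log2 fold change -10.49 ± 0.21). TRPM1 had 1 count in A375 and stood at 0.132 and 0 CPM in A375, against 88.4 and 90.2 in SKMEL28, a ratio of SKMEL28 over A375 of 1235 (exact 95% binomial interval 221 to 48820). Counts of SKMEL28 marker genes were present in A375 replicates 1 and 2 at a median 0.270% and 0.0829% of their SKMEL28 level (18 and 13 of 23 markers with a count); their part in the traces of pigment transcripts was not tested. Counts of A375 marker genes were present in SKMEL28 replicate 2 at a median 0.420% of their A375 level (14 of 15 markers with a count), and at 0% in replicate 1 (7 of 15). Their part in low SKMEL28 counts, such as those of NES, DDR1, MAGEC2 and ZEB1 given below, was not tested. GPNMB, a glycoprotein of melanosomes and lysosomes, kept a clear level in A375, at 128 and 126 CPM in A375, against 995 and 1052 in SKMEL28 (log2 fold change -3.01 ± 0.08). The member that was higher in A375 was SLC7A5, a transporter of large amino acids in many cells, at 963 and 1030 CPM in A375, against 339 and 319.6 in SKMEL28 (log2 fold change 1.6 ± 0.07).

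**Figure D3:**
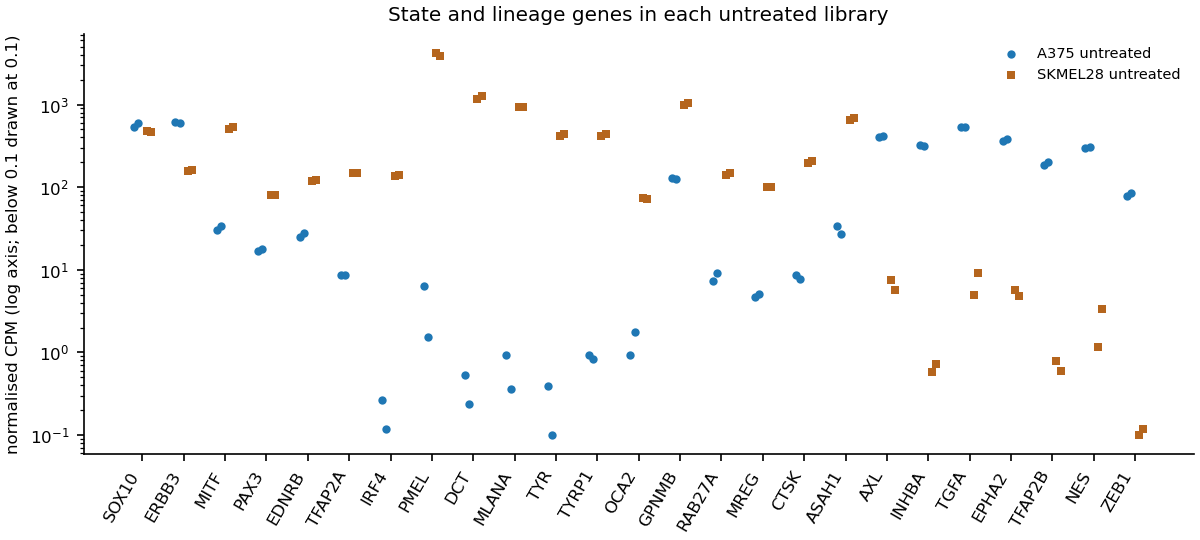
Normalised CPM (log axis) of lineage and state genes in each untreated library, A375 as circles on the left and SKMEL28 as squares on the right of each gene. SOX10 lies at a like level in all 4 libraries, the genes from IRF4 to OCA2 lie far lower in A375 than in SKMEL28, and AXL, INHBA, TGFA, EPHA2, TFAP2B, NES and ZEB1 lie the other way.

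Genes that build and move melanosomes were lower in A375 as well. Of 21 tested, 17 were lower (13 beyond 2-fold) and 3 higher (0 beyond 2-fold), with a median of -2.27. RAB27A, the small GTPase that ties melanosomes to the transport machinery, stood at 7.39 and 9.07 CPM in A375, against 141 and 149 in SKMEL28 (log2 fold change -4.13 ± 0.13). MREG, melanoregulin, which acts in melanosome transfer, stood at 4.75 and 5.13 CPM in A375, against 101 and 102 in SKMEL28 (log2 fold change -4.35 ± 0.14). RAB32, which sorts enzymes to melanosomes, stood at 13.1 and 14.2 CPM in A375, against 165 and 155 in SKMEL28 (log2 fold change -3.54 ± 0.11). MLPH, melanophilin, the link between RAB27A and a myosin motor, stood at 10 and 7.76 CPM in A375, against 399 and 409.6 in SKMEL28 (log2 fold change -5.51 ± 0.13); it is also expressed in 94T778 and counts as exposed, and without A375 replicate 1 the log2 fold change was -5.70. HPS3, a sorting subunit mutated in Hermansky-Pudlak syndrome, stood at 18.3 and 15.5 CPM in A375, against 141 and 155 in SKMEL28 (log2 fold change -3.14 ± 0.12).

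Lysosomal genes, which share regulators of the MITF family with melanosomes, were mostly lower in A375. Of 26 genes of a list that holds the MITF relatives TFEB and TFE3 besides lysosomal genes, 22 were lower (14 beyond 2-fold) and 3 higher (2 beyond 2-fold), with a median of -1.30, and -1.10 with library totals. CTSK, the protease cathepsin K, stood at 8.57 and 7.64 CPM in A375, against 196 and 209 in SKMEL28 (log2 fold change -4.65 ± 0.11). ASAH1, acid ceramidase, stood at 34.3 and 27 CPM in A375, against 655 and 678 in SKMEL28 (log2 fold change -4.45 ± 0.10). CTSD, cathepsin D, stood at 91.4 and 88.9 CPM in A375, against 1074 and 954 in SKMEL28 (log2 fold change -3.49 ± 0.09). LAMP2, a lysosomal membrane protein, stood at 110.0 and 105 CPM in A375, against 722 and 780.5 in SKMEL28 (log2 fold change -2.81 ± 0.10). The relatives of MITF that are known to drive lysosomal genes were the list's members higher beyond 2-fold: TFEB stood at 2.11 and 2.98 CPM in A375, against 0.391 and 0.717 in SKMEL28 (log2 fold change 2.08 ± 0.52). TFE3 stood at 91 and 91.7 CPM in A375, against 34.4 and 36 in SKMEL28 (log2 fold change 1.37 ± 0.09). The remaining higher member was GAA, a lysosomal enzyme, with a log2 fold change of 0.89. Of the 27 list members 17 had a promoter entry, and CTSK, ASAH1 and LAMP2 had none. Of the 17, 8 (47.1%) held CACGTG, the core of the element bound by these factors, against 6.49% of all promoters. The LAMP1 promoter held it at 5 places. CTSD held it 47 bases before the start, and GAA, higher in A375, 76 and 31 bases before it. These matches say nothing of binding.

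**Figure D4:**
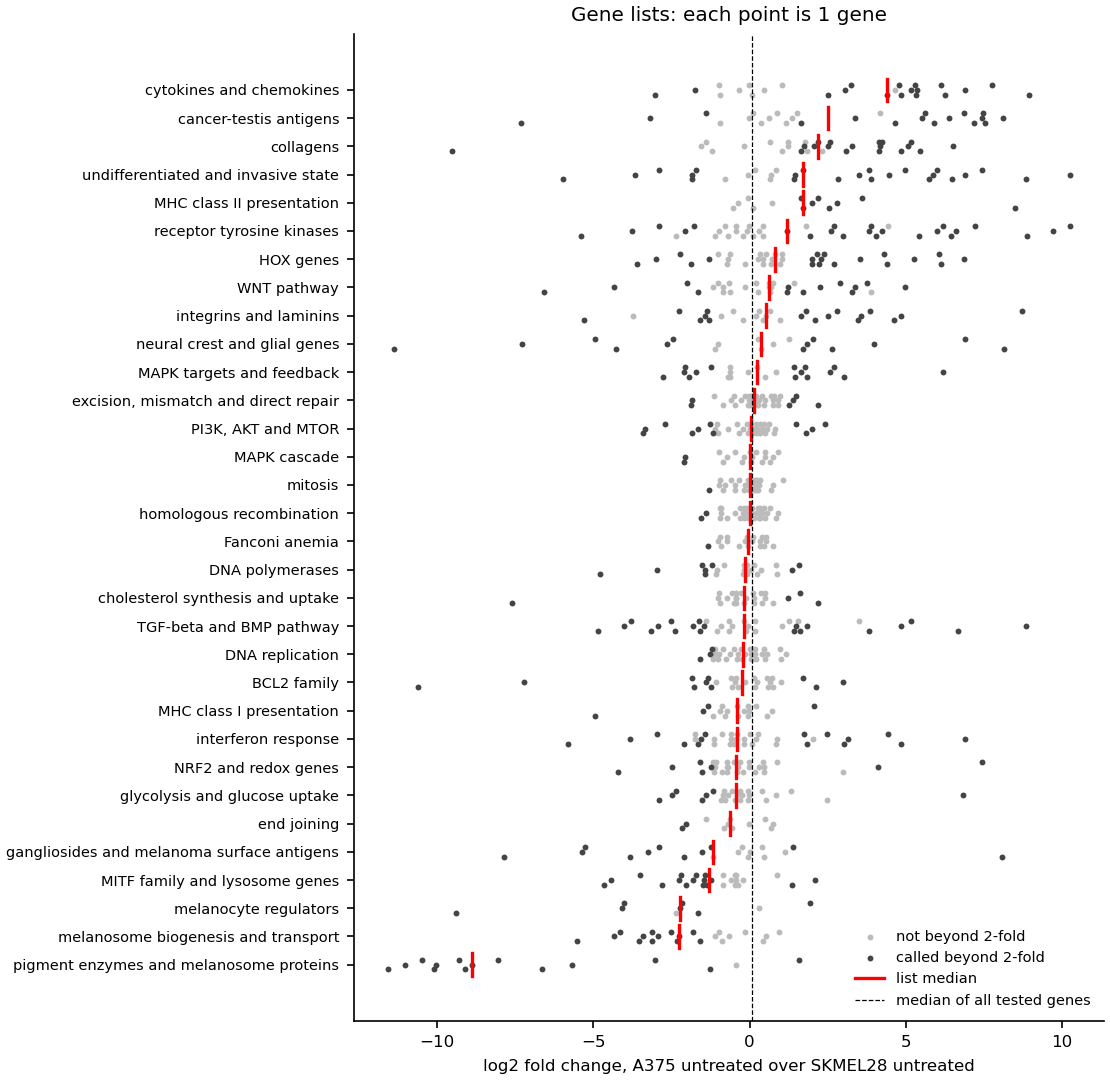
Log2 fold change, untreated A375 over untreated SKMEL28, of each tested member of the gene lists drawn; dark points were called beyond 2-fold, the red bar is the list median and the dashed line the median of all tested genes. The pigment list has the lowest median, -8.88, and the cytokine list the highest of those drawn, 4.41, while the mitosis and homologous recombination lists lie around 0.

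Genes of the undifferentiated, invasive state were mostly higher in A375, but not as a block. Of 29 tested, 20 were higher (17 beyond 2-fold) and 7 lower (6 beyond 2-fold), with a median of 1.72, and 1.47 without A375 replicate 1. AXL, a receptor tyrosine kinase that marks low-MITF melanoma, stood at 407 and 421 CPM in A375, against 7.62 and 5.73 in SKMEL28 (log2 fold change 6.0 ± 0.12, edgeR adjusted p = 3.01e-31). WNT5A, a ligand of non-canonical WNT signalling, stood at 43 and 33.7 CPM in A375, against 1.17 and 1.2 in SKMEL28 (log2 fold change 4.99 ± 0.22). EGFR, the receptor of epidermal growth factor, stood at 72.6 and 30.3 CPM in A375, against 1.96 and 4.3 in SKMEL28 (log2 fold change 3.90 ± 0.30); its level in 94T778 was 801 and 823 CPM, and without A375 replicate 1 the log2 fold change was 3.15. SOX9, a factor that opposes SOX10 in melanoma, had 2 counts in SKMEL28 and stood at 4.22 and 3.22 CPM in A375, against 0 and 0.239 in SKMEL28, a ratio of A375 over SKMEL28 of 28.8 (exact 95% binomial interval 7.64 to 244).

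Secreted factors of this list showed wide gaps. INHBA, a subunit of activin, stood at 321 and 316 CPM in A375, against 0.587 and 0.717 in SKMEL28 (log2 fold change 8.86 ± 0.18). THBS1, thrombospondin 1, stood at 288 and 302 CPM in A375, against 3.13 and 3.35 in SKMEL28 (log2 fold change 6.49 ± 0.16). TGFBI, a matrix protein induced by TGF-beta, stood at 122 and 115 CPM in A375, against 0.978 and 0.478 in SKMEL28 (log2 fold change 7.43 ± 0.19). Both A375 libraries lay above 100 CPM and both SKMEL28 libraries below 4 in all of them. IL6, an inflammatory cytokine, stood at 22.3 and 0.597 CPM in A375 replicates 1 and 2, against 0 and 0.119 CPM in SKMEL28. The high level thus stands in A375 replicate 1 alone. IL6 is a marker of 94T778, with a mean of 153.5 CPM of library totals there, against 24.85 in A375 replicate 1. That is a larger share than the marker median, and by the rule above IL6 does not count as exposed. The source of its level was not tested.

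Other members went the other way or were not called. NGFR, the nerve growth factor receptor that marks the neural crest-like state, was lower in A375, at 27 and 27.6 CPM in A375, against 49.1 and 45.8 in SKMEL28 (log2 fold change -0.79 ± 0.12). NT5E, the ecto-enzyme CD73, stood at 129 and 130.0 CPM in A375, against 938 and 1005 in SKMEL28 (log2 fold change -2.91 ± 0.10). LOX, lysyl oxidase, an exposed gene, stood at 0.396 and 0.836 CPM in A375, against 37.5 and 41.8 in SKMEL28 (log2 fold change -5.96 ± 0.23, and -5.55 without A375 replicate 1). CD44, an adhesion receptor often used as a mesenchymal marker, stood at 763 and 720.1 CPM in A375, against 757 and 789.5 CPM in SKMEL28, and was not called (edgeR adjusted p = 0.492).

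Receptor tyrosine kinases were more often higher than lower in A375. Of 39 of 47 receptors with enough counts to test, 22 were higher (18 beyond 2-fold) and 9 lower (5 beyond 2-fold), with a median of 1.2. PDGFRB, a receptor of platelet-derived growth factor, stood at 20.4 and 23.9 CPM in A375, against 0 and 0 in SKMEL28, at least 116-fold higher in A375 against a floor of 3 counts over the SKMEL28 libraries. The ephrin receptor EPHB2 stood at 15.3 and 15.3 CPM in A375, against 0 and 0 in SKMEL28, at least 79.5-fold higher. EPHA7 stood at 10 and 7.16 CPM in A375, against 0 and 0 in SKMEL28, at least 44.3-fold higher against the same floor. EPHA2, which also binds ephrins, stood at 365 and 387 CPM in A375, against 5.67 and 4.78 in SKMEL28 (log2 fold change 6.19 ± 0.13). DDR1, a collagen receptor, stood at 92.1 and 98 CPM in A375, against 0.391 and 1.31 in SKMEL28 (log2 fold change 6.60 ± 0.21). KIT, the stem cell factor receptor of melanocytes, had 1 count over the 4 libraries. MET, the hepatocyte growth factor receptor, was nearly level, at 209 and 196 CPM in A375, against 159 and 169 in SKMEL28 (log2 fold change 0.30 ± 0.08).

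Cytokine and growth factor genes were mostly higher in A375. Of 25 of 31 tested, 18 were higher (15 beyond 2-fold) and 4 lower (2 beyond 2-fold), with a median of 4.41, and 2.91 without A375 replicate 1, when 17 were higher. TGFA, a ligand of EGFR, stood at 533 and 531 CPM in A375, against 4.89 and 9.2 in SKMEL28 (log2 fold change 6.14 ± 0.13, edgeR adjusted p = 4.46e-30). IL24, a cytokine first found in differentiating melanoma cells, stood at 318 and 318 CPM in A375, against 6.84 and 8.36 in SKMEL28 (log2 fold change 5.35 ± 0.16). CSF1, the macrophage growth factor, stood at 29 and 30.8 CPM in A375, against 0.978 and 0.597 in SKMEL28 (log2 fold change 5.30 ± 0.26). IL18, an inflammasome cytokine, stood at 10 and 8 CPM in A375, against 0 and 0 in SKMEL28, at least 46.6-fold higher against the floor of 3 counts. IL11, a relative of IL6, had 1 count in SKMEL28 and stood at 19.3 and 21 CPM in A375, against 0 and 0.119 in SKMEL28, a ratio of A375 over SKMEL28 of 315 (exact 95% binomial interval 56.1 to 12470). The chemokine CXCL8, listed under its older symbol IL8, stood at 34.6 and 30.6 CPM in A375, against 31.5 and 30.2 CPM in SKMEL28, and was not called (edgeR adjusted p = 0.751).

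The glial and neural crest genes split between the lines. Of 19 tested, 9 were higher and 8 lower in A375 (7 and 6 beyond 2-fold), with a median of 0.37. MBP, myelin basic protein, stood at 0.396 and 0.239 CPM in A375, against 876 and 897 in SKMEL28 (log2 fold change -11.38 ± 0.20, and -11.75 without A375 replicate 1, since the gene is exposed). S100B, the calcium-binding protein used as a melanoma marker, stood at 36 and 34.4 CPM in A375, against 683 and 673 in SKMEL28 (log2 fold change -4.27 ± 0.09). SOX6 stood at 3.3 and 5.01 CPM in A375, against 125 and 133 in SKMEL28 (log2 fold change -4.94 ± 0.15). Its relative SOX5 stood at 279 and 300 CPM in A375, against 42.8 and 48.6 in SKMEL28 (log2 fold change 2.65 ± 0.09). NES, nestin, an intermediate filament of neural progenitors, was at 302 and 305 CPM in A375, against 1.17 and 3.35 in SKMEL28 (log2 fold change 6.91 ± 0.16). A375 thus held SOX10 and S100B transcripts, which mark the melanocyte and glial lineage, while TYR, DCT, TYRP1, MLANA and TRPM1 were near 0.

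The factors known to drive epithelial-mesenchymal transition were exchanged between the lines. ZEB1, which is linked to the invasive state in melanoma, had 1 count in SKMEL28 and stood at 78.2 and 84 CPM in A375, against 0 and 0.119 in SKMEL28, a ratio of A375 over SKMEL28 of 1268 (exact 95% binomial interval 227 to 50110). SNAI2 stood at 3.17 and 1.31 CPM in A375, against 336 and 354 in SKMEL28 (log2 fold change -7.28 ± 0.18, and -8.02 without A375 replicate 1, since the gene is exposed). ZEB2, which is linked to the melanocytic state, stood at 29.4 and 32.5 CPM in A375, against 225 and 227 in SKMEL28 (log2 fold change -2.87 ± 0.10). SNAI1 went with ZEB1, at 15 and 18.6 CPM in A375, against 1.17 and 0.597 in SKMEL28 (log2 fold change 4.34 ± 0.31). Of 23 cadherins and transition factors tested, 9 were higher and 11 lower in A375 (9 and 7 beyond 2-fold), with a median of -0.22.

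Cadherins, which join cells to each other, differed in kind. CDH2, N-cadherin, stood at 148 and 151 CPM in A375, against 18.6 and 21.4 in SKMEL28 (log2 fold change 2.88 ± 0.10). CDH13, T-cadherin, stood at 148 and 146 CPM in A375, against 3.32 and 3.23 in SKMEL28 (log2 fold change 5.49 ± 0.14). CDH3, P-cadherin, stood at 0.66 and 0.836 CPM in A375, against 34.2 and 30.3 in SKMEL28 (log2 fold change -5.38 ± 0.26). DSP, desmoplakin, which anchors desmosomes, stood at 29.9 and 29.6 CPM in A375, against 0.391 and 0.239 in SKMEL28 (log2 fold change 6.56 ± 0.36). CDH1, E-cadherin, had 1 and 0 counts in A375 and 0 and 1 in SKMEL28 and was not tested. FN1, fibronectin, stood at 636 and 59.1 CPM in A375, against 17690 and 18360 in SKMEL28 (log2 fold change -5.70 ± 0.44); it was at 52500 and 51590 CPM in 94T778, and without A375 replicate 1 the log2 fold change was -8.25. The A375 libraries disagreed in FN1, but both lay far below the SKMEL28 libraries.

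Collagen genes were mostly higher in A375, with 1 large exception. Of 29 tested, 22 were higher (17 beyond 2-fold) and 3 lower (1 beyond 2-fold), with a median of 2.18; 5 of the list are exposed. COL4A1, a common chain of basement membrane collagen, stood at 349.6 and 360.4 CPM in A375, against 10.2 and 13.7 in SKMEL28 (log2 fold change 4.85 ± 0.10). Its partner COL4A2 stood at 686 and 709 CPM in A375, against 38.5 and 39.5 in SKMEL28 (log2 fold change 4.16 ± 0.09). COL5A2, a chain of fibril-forming collagen, stood at 245 and 258 CPM in A375, against 8.41 and 6.93 in SKMEL28 (log2 fold change 5.06 ± 0.12). COL6A1, a chain of microfibril collagen, stood at 189 and 175 CPM in A375, against 4.11 and 4.18 in SKMEL28 (log2 fold change 5.45 ± 0.14). COL11A1, a fibrillar collagen of cartilage, stood at 0.66 and 0.597 CPM in A375, against 481 and 462 in SKMEL28 (log2 fold change -9.51 ± 0.17, edgeR adjusted p = 1.25e-31). The libraries of the lines did not overlap in any of these genes.

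Integrins and laminins, the receptors and ligands of cell-matrix contact, differed by member. Of 27 tested, 15 were higher and 8 lower in A375 (11 and 6 beyond 2-fold), with a median of 0.51. ITGB4, the beta subunit of the hemidesmosome integrin, had 3 counts in SKMEL28 and stood at 99.6 and 106 CPM in A375, against 0.587 and 0 in SKMEL28, a ratio of A375 over SKMEL28 of 536 (exact 95% binomial interval 183 to 2603). ITGA3, an alpha subunit that binds laminin, stood at 668 and 636 CPM in A375, against 54.4 and 54.5 in SKMEL28 (log2 fold change 3.58 ± 0.09). ITGAV, the alpha subunit of vitronectin receptors, stood at 93.3 and 84 CPM in A375, against 412 and 431 in SKMEL28 (log2 fold change -2.25 ± 0.12). The laminin alpha chains were exchanged, with LAMA5 at 195 and 229.7 CPM in A375, against 9.19 and 8.24 in SKMEL28 (log2 fold change 4.62 ± 0.17). LAMA1 stood at 14 and 13.7 CPM in A375, against 536 and 559 in SKMEL28 (log2 fold change -5.30 ± 0.12). ITGB1, the common beta subunit, stood at 535 and 484 CPM in A375, against 564 and 602 CPM in SKMEL28, and was not called (edgeR adjusted p = 0.0861).

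Among 25 extracellular proteases and inhibitors tested, 9 were higher and 13 lower in A375 (7 and 8 beyond 2-fold), with a median of -0.61. MMP14, the membrane-bound protease that activates MMP2, stood at 95.1 and 84.2 CPM in A375, against 794 and 774 in SKMEL28 (log2 fold change -3.13 ± 0.09). MMP2, gelatinase A, went the other way, at 180.2 and 195 CPM in A375, against 18.6 and 21.5 in SKMEL28 (log2 fold change 3.21 ± 0.11), as did MMP16, another membrane-type protease, at 245 and 259 CPM in A375, against 23.1 and 25.3 in SKMEL28 (log2 fold change 3.37 ± 0.12). MMP8, a collagenase best known from neutrophils, stood at 1.05 and 0.716 CPM in A375, against 137 and 132 in SKMEL28 (log2 fold change -7.23 ± 0.19). The A375 libraries of MMP8 were near 1 CPM and both SKMEL28 libraries above 130.

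The kinases of the MAPK cascade, which carry growth signals from RAS and RAF, differed little compared with the genes above. Of 18 tested, 7 were higher and 7 lower in A375, but only 2 passed 2-fold, against 28.6% of all genes, and the median was 0.03. BRAF stood at 34.8 and 33.9 CPM in A375, against 24.4 and 27 in SKMEL28 (log2 fold change 0.41 ± 0.12). NRAS stood at 120.2 and 122 CPM in A375, against 233 and 245 in SKMEL28 (log2 fold change -0.98 ± 0.10).

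Transcriptional targets and feedback inhibitors of the cascade moved in both directions: of 23 tested, 12 were higher and 10 lower in A375 (9 and 6 beyond 2-fold), with a median of 0.22. The inhibitors SPRY4, at 519 and 545 CPM in A375, against 86.6 and 89.6 in SKMEL28 (log2 fold change 2.59 ± 0.09), and DUSP5, a phosphatase of MAP kinases, at 71.8 and 78.4 CPM in A375, against 9.58 and 8.96 in SKMEL28 (log2 fold change 3.03 ± 0.13), were higher in A375. EGR1, an immediate early factor, stood at 103 and 116 CPM in A375, against 17 and 16.6 in SKMEL28 (log2 fold change 2.71 ± 0.13). MYC, the growth factor-induced transcription factor, was lower, at 31.4 and 29.4 CPM in A375, against 220.3 and 199 in SKMEL28 (log2 fold change -2.78 ± 0.09), and so was ETV5, at 159.8 and 157 CPM in A375, against 510.1 and 518 in SKMEL28 (log2 fold change -1.70 ± 0.09). CCND1, cyclin D1, stood at 490.2 and 486 CPM in A375, against 1150 and 1152 in SKMEL28 (log2 fold change -1.24 ± 0.07). The relative of ETV5, ETV4, went the other way, at 194 and 209 CPM in A375, against 62.2 and 57.5 in SKMEL28 (log2 fold change 1.76 ± 0.08).

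Of 36 genes of the PI3K, AKT and MTOR pathway, the target of the drug used in the series, 14 were higher and 13 lower in A375 before any treatment (4 and 7 beyond 2-fold), with a median of 0.06. Of all tested genes 37.0% were higher, 31.6% lower and 28.6% beyond 2-fold, so the pathway as a whole lay near these shares. MTOR itself stood at 121 and 125 CPM in A375, against 290.3 and 299.9 in SKMEL28 (log2 fold change -1.26 ± 0.08). DEPTOR, an inhibitor bound to both MTOR complexes, stood at 9.76 and 9.43 CPM in A375, against 1.37 and 2.03 in SKMEL28 (log2 fold change 2.42 ± 0.28). TBC1D7, a subunit of the tuberous sclerosis complex, stood at 14.5 and 10.7 CPM in A375, against 130.4 and 127 in SKMEL28 (log2 fold change -3.35 ± 0.12). The PI3K subunits PIK3R3, at 33.4 and 30.9 CPM in A375, against 334 and 343 in SKMEL28 (log2 fold change -3.40 ± 0.10), and PIK3CD, at 26.1 and 24.8 CPM in A375, against 168 and 168 in SKMEL28 (log2 fold change -2.72 ± 0.09), were lower in A375.

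The following genes are given as single values and do not stand for a group; each was higher in A375. CDKN1A, the cell cycle inhibitor p21, stood at 134 and 139.8 CPM in A375, against 14.1 and 13.9 in SKMEL28 (log2 fold change 3.30 ± 0.11, edgeR adjusted p = 1.04e-24). EDA2R, a death receptor, stood at 11.7 and 13.1 CPM in A375, against 0.978 and 1.31 in SKMEL28 (log2 fold change 3.37 ± 0.28). DDB2, which recognises ultraviolet lesions, stood at 68.6 and 68.9 CPM in A375, against 22.3 and 26.2 in SKMEL28 (log2 fold change 1.48 ± 0.11). MDM2, a ubiquitin ligase, is amplified in 94T778 and exposed; it stood at 223 and 106 CPM in A375, against 60.2 and 68.7 in SKMEL28, with a log2 fold change of 1.34 from all libraries and 0.71 without A375 replicate 1, when it was still called but no longer beyond 2-fold.

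Regulators of the G1 phase had 10 higher and 10 lower genes in A375 of 24 tested (4 and 8 beyond 2-fold). CDKN2A, which encodes the inhibitor p16, stood at 2.24 and 2.27 CPM in A375, against 33 and 30.2 in SKMEL28 (log2 fold change -3.79 ± 0.20, and -3.78 without A375 replicate 1). CDK2, the kinase of the entry into S phase, stood at 89.8 and 95.5 CPM in A375, against 325 and 327 in SKMEL28 (log2 fold change -1.81 ± 0.09). CDK4, which CDKN2A inhibits and which is amplified in 94T778, stood at 284 and 254 CPM in A375, against 133 and 131 in SKMEL28 (log2 fold change 1.03 ± 0.08, and 0.95 without A375 replicate 1). Proliferation genes differed less: of 30 mitosis genes 10 were higher and 9 lower, 1 beyond 2-fold, with a median of 0.02, and of 32 replication genes 9 were higher and 14 lower, 3 beyond 2-fold, with a median of -0.19 that was 0.01 with library totals, when 14 were higher. Without a filter on low counts 5 mitosis genes were higher, and 6 with DESeq2 or without SKMEL28 replicate 1. BUB1, a kinase of the spindle checkpoint, stood at 71.2 and 74.7 CPM in A375, against 175 and 185 in SKMEL28 (log2 fold change -1.30 ± 0.09). MCM5, a subunit of the replicative helicase, stood at 69.1 and 71.8 CPM in A375, against 218 and 202 in SKMEL28 (log2 fold change -1.57 ± 0.08).

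Among the DNA repair genes, around which the series was designed, those of homologous recombination lay close in the untreated lines. Of 32 homologous recombination genes tested, 10 were higher and 10 lower in A375, and 2 passed 2-fold, against 28.6% of all genes; the median was 0.01, and 0.22 with library totals. BRCA1, which resects and escorts broken ends, stood at 101 and 97.8 CPM in A375, against 106 and 116 in SKMEL28, and was not called (edgeR adjusted p = 0.127), except with the 4 libraries alone. BRCA2, which acts later in strand exchange, stood at 29.4 and 29.2 CPM in A375, against 48.3 and 47.8 in SKMEL28 (log2 fold change -0.71 ± 0.12). The genes past 2-fold were BARD1 and ATM, both lower in A375. BARD1, the partner of BRCA1, stood at 12.8 and 9.55 CPM in A375, against 31.9 and 33.1 in SKMEL28 (log2 fold change -1.55 ± 0.16). ATM, the kinase that senses breaks, stood at 113 and 102 CPM in A375, against 264 and 299 in SKMEL28 (log2 fold change -1.39 ± 0.09).

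Fanconi anemia genes, which act on crosslinked DNA, had 7 higher and 7 lower members of 19, with a median of -0.06 that was 0.15 with library totals. FANCI, a subunit of the clamp that loads on crosslinks, passed 2-fold, at 185 and 175 CPM in A375, against 445 and 452 in SKMEL28 (log2 fold change -1.32 ± 0.08); its partner FANCD2 stood at 82.7 and 77.1 CPM in A375, against 72.5 and 78.2 CPM in SKMEL28, and was not called (edgeR adjusted p = 0.499), except with library totals. Among 24 DNA polymerase genes 6 were higher and 9 lower in A375 (2 and 6 beyond 2-fold). POLE4, a small subunit of polymerase epsilon, stood at 16.1 and 17.2 CPM in A375, against 132 and 129 in SKMEL28 (log2 fold change -2.97 ± 0.11). POLQ, the polymerase of microhomology end joining, stood at 40.6 and 38.1 CPM in A375, against 87.2 and 94.5 in SKMEL28 (log2 fold change -1.21 ± 0.11). REV3L, the catalytic subunit of polymerase zeta, stood at 61.7 and 59.8 CPM in A375, against 155 and 171 in SKMEL28 (log2 fold change -1.43 ± 0.11).

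Of 37 genes of excision, mismatch and direct repair, 15 were higher and 8 lower in A375 (4 and 2 beyond 2-fold), with a median of 0.13. ERCC1, part of the nuclease that cuts beside a lesion, stood at 183 and 208 CPM in A375, against 79.2 and 72 in SKMEL28 (log2 fold change 1.38 ± 0.09). ERCC6, which acts where transcription stalls, stood at 16.6 and 18.7 CPM in A375, against 63 and 63.6 in SKMEL28 (log2 fold change -1.83 ± 0.11). MGMT, which removes alkyl groups from guanine, stood at 10.8 and 8.71 CPM in A375, against 6.26 and 4.42 in SKMEL28 (log2 fold change 0.92 ± 0.22). Of 11 end joining genes 3 were higher and 7 lower, with a median of -0.63; DCLRE1C, the nuclease Artemis, stood at 14.5 and 14.8 CPM in A375, against 55.9 and 62.4 in SKMEL28 (log2 fold change -2.02 ± 0.13).

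Antigen presentation differed by class. Of 13 MHC class II genes tested, 9 were higher (8 beyond 2-fold) and 1 was lower in A375, or 0 with library totals, with DESeq2 and without A375 replicate 2 or SKMEL28 replicate 2, with a median of 1.72. CD74, the invariant chain, stood at 591 and 665 CPM in A375, against 50.6 and 52 in SKMEL28 (log2 fold change 3.61 ± 0.10). HLA-DRA, the constant chain of HLA-DR, stood at 169.8 and 166 CPM in A375, against 28.1 and 28.7 in SKMEL28 (log2 fold change 2.56 ± 0.10). CIITA, the activator of the class, stood at 30.1 and 32 CPM in A375, against 9.38 and 9.44 in SKMEL28 (log2 fold change 1.72 ± 0.16). Of 18 class I genes 4 were higher and 10 lower. B2M, the shared light chain, stood at 465 and 432 CPM in A375, against 289 and 318 in SKMEL28 (log2 fold change 0.56 ± 0.08), while HLA-B and HLA-C had log2 fold changes of 0.20 and -0.36; the first lost its call under 5 alternatives and the second with library totals. HLA genes vary in sequence between donors and have near-identical copies, so their counts are uncertain.

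Interferon-induced genes were mixed. Of 35 tested, 10 were higher and 16 lower in A375 (8 and 7 beyond 2-fold), with a median of -0.39. BST2, tetherin, which holds virus particles at the cell surface, stood at 3.3 and 3.58 CPM in A375, against 54.5 and 44.6 in SKMEL28 (log2 fold change -3.82 ± 0.17). MX2, an antiviral GTPase, was higher, at 68.9 and 64 CPM in A375, against 3.13 and 2.99 in SKMEL28 (log2 fold change 4.44 ± 0.18), as was IFITM3, a membrane protein that blocks viral entry, at 119 and 129 CPM in A375, against 17.8 and 13.7 in SKMEL28 (log2 fold change 3.01 ± 0.12).

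Cancer-testis antigens, germ line proteins re-expressed in tumours, were mostly higher in A375. Of 26 of 36 tested, 17 were higher (13 beyond 2-fold) and 3 lower (3 beyond 2-fold), with a median of 2.52. MAGEA4 stood at 712 and 694 CPM in A375, against 24.6 and 30 in SKMEL28 (log2 fold change 4.66 ± 0.11). The MAGEC genes were exchanged, with MAGEC2 at 109 and 119 CPM in A375, against 0.196 and 0.836 in SKMEL28 (log2 fold change 7.55 ± 0.23). MAGEC1 stood at 1.72 and 0.716 CPM in A375, against 191 and 194 in SKMEL28 (log2 fold change -7.32 ± 0.17). PRAME, an antigen used to diagnose melanoma, stood at 189.6 and 189 CPM in A375, against 509.9 and 484 in SKMEL28 (log2 fold change -1.39 ± 0.08). Several of these families have near-identical copies, among which reads can be lost or shared.

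Of 19 genes of ganglioside synthesis and surface antigens, 4 were higher and 12 lower in A375 (2 and 9 beyond 2-fold), with a median of -1.17. The enzymes of ganglioside synthesis were exchanged: ST8SIA1, GD3 synthase, stood at 3.03 and 2.15 CPM in A375, against 104 and 109 in SKMEL28 (log2 fold change -5.37 ± 0.16). B4GALNT1, GM2/GD2 synthase, with 2 counts in SKMEL28, stood at 48.9 and 41.2 CPM in A375, against 0.391 and 0 in SKMEL28, a ratio of A375 over SKMEL28 of 349.9 (exact 95% binomial interval 96.5 to 2895). CEACAM1, an adhesion molecule of melanoma and immune cells, stood at 1.58 and 1.79 CPM in A375, against 399 and 400.2 in SKMEL28 (log2 fold change -7.87 ± 0.17). CSPG4, the melanoma proteoglycan, stood at 1101 and 1197 CPM in A375, against 451 and 424 in SKMEL28 (log2 fold change 1.40 ± 0.08).

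Of 29 WNT pathway genes 15 were higher and 10 lower in A375, with a median of 0.64. RNF43, a ligase that removes WNT receptors and is itself a WNT target, had 2 counts in A375 and stood at 0.132 and 0.119 CPM in A375, against 13.7 and 13.7 in SKMEL28, a ratio of SKMEL28 over A375 of 94.6 (exact 95% binomial interval 25.8 to 787), while TCF7L2, a nuclear effector, stood at 54.6 and 59.1 CPM in A375, against 11.3 and 12.2 in SKMEL28 (log2 fold change 2.26 ± 0.14). Of 35 TGF-beta and BMP genes 12 were higher and 16 lower (9 and 11 beyond 2-fold), with a median of -0.17 that was 0.04 with library totals. The ligand TGFB1 stood at 53.7 and 67.6 CPM in A375, against 2.15 and 2.03 in SKMEL28 (log2 fold change 4.86 ± 0.24). The co-receptor TGFBR3 stood at 5.94 and 5.61 CPM in A375, against 88.8 and 97 in SKMEL28 (log2 fold change -4.01 ± 0.14). ID2, a target of BMP signals, stood at 0.66 and 0.716 CPM in A375, against 20.3 and 20.7 in SKMEL28 (log2 fold change -4.86 ± 0.27).

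Glycolysis genes were mostly lower in A375. Of 26 tested, 17 were lower (6 beyond 2-fold) and 5 higher (1 beyond 2-fold), with a median of -0.44. HK2, the hexokinase that commits glucose, stood at 122 and 117 CPM in A375, against 856 and 905 in SKMEL28 (log2 fold change -2.88 ± 0.08). LDHA, the lactate dehydrogenase subunit, stood at 633 and 601 CPM in A375, against 3101 and 3168 in SKMEL28 (log2 fold change -2.35 ± 0.08). PDK1, which holds pyruvate back from the mitochondria, stood at 27.3 and 26.7 CPM in A375, against 152 and 151 in SKMEL28 (log2 fold change -2.49 ± 0.09). ALDOC, an aldolase, was the member higher beyond 2-fold, at 37.1 and 34.4 CPM in A375, against 0.196 and 0.358 in SKMEL28 (log2 fold change 6.83 ± 0.32). GAPDH stood at 2259 and 2418 CPM in A375, against 2431 and 2344 CPM in SKMEL28, and was not called (edgeR adjusted p = 0.751).

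Transcripts encoded in the mitochondrial genome were lower in A375, 11 of 12 tested (4 beyond 2-fold, and 1 without A375 replicate 1), with a median of -1.0 that was -0.79 with library totals. MT-CO2, a subunit of cytochrome oxidase, stood at 2838 and 3332 CPM in A375, against 8462 and 10800 in SKMEL28 (log2 fold change -1.64 ± 0.14). The nuclear genes of oxidative phosphorylation had a median of -0.13, and 0.08 with library totals, with 11 higher and 17 lower of 38 and 5 beyond 2-fold. NDUFB3, a subunit of complex I, stood at 21.1 and 22.6 CPM in A375, against 79.4 and 90.5 in SKMEL28 (log2 fold change -1.97 ± 0.11). PPARGC1A, a MITF target that drives mitochondrial genes in some melanomas, was low in both lines, at 1.32 and 0.597 CPM in A375 and 1.96 and 0.836 CPM in SKMEL28, and was not called (edgeR adjusted p = 0.507); of its network and the citric acid cycle 9 were higher and 7 lower of 23.

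Lipid genes differed in both directions. Of 24 genes of fatty acid synthesis and storage 11 were higher and 8 lower in A375 (7 and 6 beyond 2-fold), and of 25 cholesterol genes 8 were higher and 12 lower (3 and 1 beyond 2-fold). SREBF1, the transcription factor of lipid synthesis, stood at 224 and 245 CPM in A375, against 33.6 and 34.2 in SKMEL28 (log2 fold change 2.79 ± 0.10). PPARG, the nuclear receptor of fat storage, stood at 89 and 91.9 CPM in A375, against 2.15 and 2.39 in SKMEL28 (log2 fold change 5.29 ± 0.16). LPL, lipoprotein lipase, with 3 counts in SKMEL28, stood at 27.8 and 27.3 CPM in A375, against 0.196 and 0.239 in SKMEL28, a ratio of A375 over SKMEL28 of 143 (exact 95% binomial interval 48.7 to 698). CD36, a fatty acid transporter, stood at 0.528 and 0.716 CPM in A375, against 19.4 and 19.4 in SKMEL28 (log2 fold change -4.91 ± 0.30). FABP7, the fatty acid carrier of melanoma and glia, stood at 2.38 and 2.51 CPM in A375, against 18.8 and 23.5 in SKMEL28 (log2 fold change -3.13 ± 0.23).

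Redox genes, many of them targets of the factor NRF2, were mostly lower in A375: 18 of 30 were lower and 8 higher (5 and 2 beyond 2-fold), with a median of -0.44. HMOX1, heme oxygenase, stood at 7.92 and 7.64 CPM in A375, against 151 and 138 in SKMEL28 (log2 fold change -4.21 ± 0.12). TALDO1, transaldolase, stood at 74.9 and 69.1 CPM in A375, against 207 and 209 in SKMEL28 (log2 fold change -1.53 ± 0.08). Of 19 aldehyde and retinoid enzymes 14 were higher and 2 lower, with the largest differences in opposite directions. ALDH2, the mitochondrial aldehyde dehydrogenase, stood at 36.4 and 27.1 CPM in A375, against 0 and 0 in SKMEL28, at least 164-fold higher against the floor of 3 counts, and ALDH1A1, the retinal dehydrogenase used as a stem cell marker, with 2 counts in A375, at 0.132 and 0.119 CPM in A375, against 98.7 and 91.4 in SKMEL28, a ratio of SKMEL28 over A375 of 649.7 (exact 95% binomial interval 179.5 to 5371).

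The BCL2 and inhibitor of apoptosis families, which hold survival and death genes, had 9 higher and 12 lower members in A375 of 26 tested (3 and 7 beyond 2-fold). Their median was -0.26. BIRC7, the melanoma inhibitor of apoptosis whose promoter is printed above, had 1 count in A375 and stood at 0.132 and 0 CPM in A375, against 124 and 128 in SKMEL28, a ratio of SKMEL28 over A375 of 1742 (exact 95% binomial interval 312 to 68860). BCL2A1, a BCL2 relative and MITF target, stood at 0.792 and 0.955 CPM in A375, against 124 and 139.8 in SKMEL28 (log2 fold change -7.21 ± 0.18, edgeR adjusted p = 5.27e-28). MCL1, another survival protein of the family, was higher in A375, at 749 and 739 CPM in A375, against 162 and 179 in SKMEL28 (log2 fold change 2.12 ± 0.08), and so was BIRC3, at 9.5 and 9.67 CPM in A375, against 0.587 and 1.55 in SKMEL28 (log2 fold change 3.0 ± 0.35). The libraries of the lines lay apart in all of them.

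Outside the lists, the largest differences included genes without a count in 1 of the lines. SV2A, a synaptic vesicle protein, stood at 102 and 105 CPM in A375, against 0 and 0 in SKMEL28, at least 538-fold higher in A375. BGN, the proteoglycan biglycan, stood at 69.5 and 63.8 CPM in A375, against 0 and 0 in SKMEL28, at least 346-fold higher. SOX11, a neuronal SOX factor, stood at 64.1 and 62.7 CPM in A375, against 0 and 0 in SKMEL28, at least 329-fold higher, all against the floor of 3 counts over the SKMEL28 libraries. STRA6, the receptor for retinol-binding protein, stood at 57.4 and 67 CPM in A375, against 0 and 0 in SKMEL28, at least 324-fold higher. ABCA1, the cholesterol exporter, stood at 28.9 and 32.5 CPM in A375, against 0 and 0 in SKMEL28, at least 160.0-fold higher. In the other direction EPB41L3, a cytoskeletal adaptor, stood at 0 and 0 CPM in A375, against 129 and 135 in SKMEL28, at least 610.5-fold lower in A375. PCSK2, a prohormone convertase, stood at 0 and 0 CPM in A375, against 76.1 and 63.8 in SKMEL28, at least 315-fold lower. GALNT3, which starts mucin-type sugar chains, stood at 0 and 0 CPM in A375, against 46.1 and 42.2 in SKMEL28, at least 201-fold lower against the same floor. PMP2, a myelin lipid carrier, had 1 count in A375 and stood at 0 and 0.119 CPM in A375, against 157 and 176 in SKMEL28, a ratio of SKMEL28 over A375 of 2327 (exact 95% binomial interval 417 to 91940). Of the 15 largest in that direction, 5 were transcripts named by clone-style symbols, among them the lincRNA AC002511.1 at 0 and 0.119 CPM in A375, against 217 and 215 in SKMEL28, a ratio of SKMEL28 over A375 of 2972 (exact 95% binomial interval 533 to 117400).

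Among markers of other cell types some were at 0 and others had clear levels; sums are in CPM of library totals. The luminal breast list summed to 637 and 675 CPM in A375, against 212 and 214 CPM in SKMEL28. KRT18, a keratin also found outside epithelia, stood at 308 and 315 CPM in A375, against 15.2 and 13.1 in SKMEL28, and EPCAM was below 1 CPM in all 4 libraries. CLDN4, a tight junction protein, stood at 15.4 and 16.1 CPM in A375, against 0.391 and 0.358 in SKMEL28 (log2 fold change 5.34 ± 0.32). ESRP1, a splicing factor of epithelia, stood at 0.528 and 0.836 CPM in A375, against 43.6 and 41.5 in SKMEL28 (log2 fold change -5.91 ± 0.24). The fibroblast and adipocyte list, whose median of 3.42 was 1.52 without A375 replicate 1, summed to 158 and 143 CPM in A375, against 45.8 and 45.6 CPM in SKMEL28, with 8 of 15 members tested; DCN and COL3A1 had at most 6 counts in a library and ADIPOQ had 0 in each. LUM, the matrix proteoglycan lumican, stood at 5.14 and 5.25 CPM in A375, against 40.9 and 41.7 in SKMEL28 (log2 fold change -2.99 ± 0.16), and PDGFRB and PPARG, given above, were higher in A375. The keratinocyte list summed to 43.5 and 45.3 CPM in A375, against 17.7 and 19.5 CPM in SKMEL28, with KRT5 and TP63 at 0 in each library. KRT14 had 8 and 12 counts in A375 and 0 and 0 in SKMEL28. DSC3, a desmosomal cadherin, stood at 9.37 and 12.4 CPM in A375, against 0 and 0 in SKMEL28, at least 57-fold higher in A375 against the floor of 3 counts. The blood and endothelium list summed to 70 and 74.3 CPM in A375, against 142.3 and 150.4 CPM in SKMEL28, most of it CD68, and PTPRC, the pan-leukocyte gene, had no count. The part of other cells in these values was not tested.

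The same lines were also sequenced after 72 h with 4 µM torkinib, with 2 further libraries per line, which give a second view of the line difference under the drug. There 11288 genes (67.6%) differed, 5976 (35.8%) higher and 5312 (31.8%) lower in A375. Of the 4780 genes beyond 2-fold without drug, 4256 (89.0%) were called in the same direction with it and 49 in the opposite one. With torkinib the log2 fold change was -5.53 for MITF, -9.48 for DCT, -12.10 for PMEL, 7.06 for AXL and 5.65 for CDKN1A. Among members called without drug, the sign was the same in both conditions for 7 of 8 melanocyte regulators and 14 of 15 pigment genes. Over all genes called without drug it was the same for 10225 of 11463. SOX10 had -0.18 with torkinib and was not called there (edgeR adjusted p = 0.0667), against 0.29 without drug, and ATP7A, the copper transporter that supplies tyrosinase, had 0.39 (edgeR adjusted p = 0.00843), against -1.26 without drug. MLPH had -12.09 with the drug, at 0.152 and 0.211 CPM in A375, against 854.1 and 848.5 in SKMEL28. Without drug MLPH stood at 7.76 CPM in A375 replicate 2, and its log2 fold change without the exposed replicate 1 was -5.70.

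**Figure D5:**
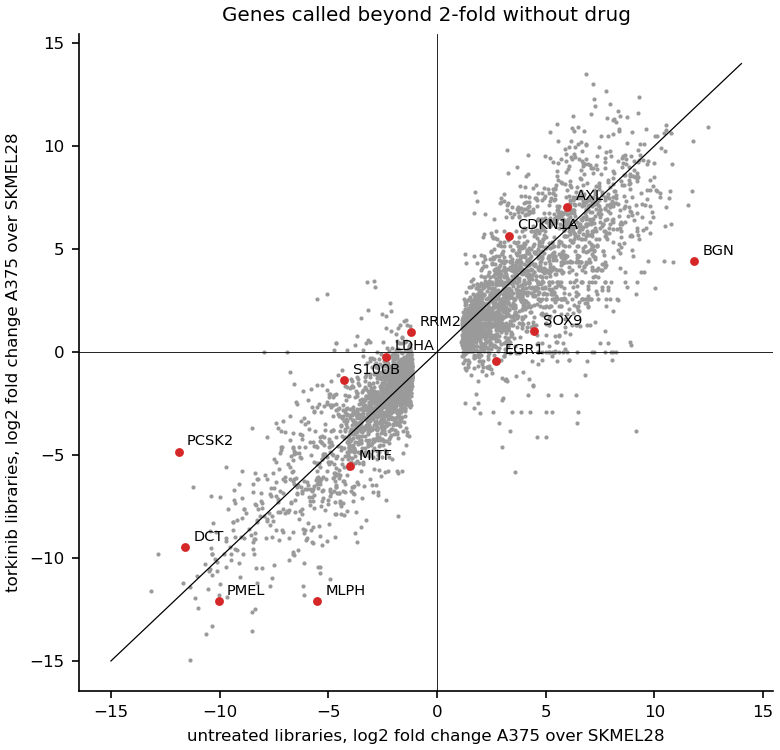
Log2 fold change, A375 over SKMEL28, in the torkinib libraries (vertical axis) against the untreated libraries (horizontal axis) for the 4780 genes called beyond 2-fold without drug; red points are named genes and the diagonal marks equal differences. Most points share their sign in both conditions, with EGR1 and RRM2 among the exceptions.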

How the data were processed

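RNA-seq counts per gene symbol were deposited by the authors, 1 table per library, as whole raw read counts. The notes name hg19 and the tools HTSeq 0.6.1, HISAT2 2.04 and limma 3.34.9 without roles, per the submitters' processing notes. Annotation and strandedness of the counting were not given in the sources used, so overlapping and antisense genes and near-identical copies are uncertain. HTSeq's summary lines were left out of library sizes.

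The 20 libraries were fitted together in edgeR 4.0.16 (R 4.3.3) with 10 group means, TMM factors and edgeR's filter on low counts, and tested by quasi-likelihood, with Benjamini-Hochberg adjusted p under 0.05. Differences beyond 2-fold were tested with edgeR's glmTreat. SE belongs to the log2 fold change and is its absolute value divided by the square root of the F statistic. Where a line had few counts, this SE can be smaller than the counting error. Ratios with 1 to 3 counts in a line have exact 95% binomial intervals, and bounds use a floor of 3 counts over the line. Both are scaled by library totals and cover counting error only. With TMM factors they would be smaller for genes higher in A375 and larger for genes lower in A375. Promoters came from RefSeq and biotypes from GENCODE 29.

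Members and lists were chosen with earlier results of these data known. Up to 6 members per list were named by the largest difference with 5 CPM or more in both libraries of the higher line, together with genes the list names turn on, and the 15 largest differences in each direction with 20 CPM or more that are not exposed. ATP7A, CD44, CIITA, COL4A2, CSPG4, ETV4, ETV5, GAA, GAPDH, GPNMB, IL6, IL8, ITGAV, ITGB1, KRT14, MET, NT5E, SLC7A5, SNAI1, SOX5, TFE3, TFEB and ZEB2 were added after their values were seen, as were the genes named at or near 0. ANXA1, ANXA5, HOXC10 and S100A6 were also named outside the rule. Alternatives were RLE factors, library totals, no filter, the 4 libraries alone, a replicate block, each replicate left out, limma-voom (limma 3.58.1) and DESeq2 1.42.0. The fit was tested on simulated data. Some members of the lists are not reported here.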

Additional observations from a re-analysis of the deposited data

Results flagged for a closer look

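Genes named by the rule given with the processing were looked at here where the lines differed beyond 2-fold without drug and in the opposite direction with torkinib, and where the interaction term of the edgeR fit was called, each at an adjusted p under 0.05. EGR1, the immediate early factor, had a log2 fold change, A375 over SKMEL28, of 2.71 without drug and -0.41 with torkinib, a difference of 3.12 (edgeR adjusted p = 2.23e-17). RRM2, the regulatory subunit of ribonucleotide reductase, had -1.19 without drug and 0.95 with torkinib, a difference of -2.13 (edgeR adjusted p = 1.17e-13). CDT1, a replication licensing factor, and TFAP2C, a transcription factor, were also called with opposite signs without drug and with torkinib but were not beyond 2-fold without drug. CDT1 had 1.17 without drug and -0.56 with torkinib, a difference of 1.72 (edgeR adjusted p = 7.58e-09). TFAP2C had 0.90 without drug and -0.35 with torkinib, a difference of 1.25 (edgeR adjusted p = 3.23e-09). Of the genes added after their values were seen, ATP7A, with -1.26 without drug and 0.39 with torkinib, differed by -1.66 (edgeR adjusted p = 7.47e-09). GAA, with 0.89 without drug and -0.83 with torkinib, differed by 1.72 (edgeR adjusted p = 3.12e-12). Counts of 94T778 marker genes in untreated A375 replicate 1 stood out as a signal outside the main measurement. They were at a median 2.22% of their 94T778 level, against 0.239% in replicate 2. The markers were chosen to be under 1 CPM in the torkinib libraries of A375, so those libraries give no comparison.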

How the results depend on the processing

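The 11463 calls stayed within 1.5 times under every alternative run, between 9996 (without SKMEL28 replicate 2) and 11656 (the 4 libraries alone), and the 4780 beyond 2-fold between 3380 (DESeq2) and 4921 (library totals). Leaving out a replicate gave 9996 to 10745 calls and 4206 to 4468 beyond 2-fold. Of 3410 values under alternatives of 310 genes named by the rule, 15 lost their call, 3 gained one and 0 changed direction. Genes named outside the rule were not among the 310. Among the calls lost were those of HOXD4 with DESeq2, SOX10 without A375 replicate 2, FANCA under 6 settings, HLA-B under 5 and HLA-C with library totals; the cause was not tested. Replicate numbers did not pair the libraries (r = -0.06 between same-numbered deviations over 11277 genes), and the fit with a replicate block called 11398 genes, 4756 beyond 2-fold. Depth of 5201967 to 8756448 reads limits genes under about 1 CPM, where a few reads decide a value.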

Other observations

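HOX genes, which give cells their position along the body axis, were more often higher in A375. Of 35 tested, 22 were higher (14 beyond 2-fold) and 8 lower (5 beyond 2-fold), with a median log2 fold change of 0.81. HOXA10 had 1 count in SKMEL28 and stood at 11.7 and 9.91 CPM in A375, against 0 and 0.119 in SKMEL28, a ratio of A375 over SKMEL28 of 168 (exact 95% binomial interval 29.8 to 6678). HOXC10 stood at 38.4 and 40.2 CPM in A375, against 7.23 and 9.92 in SKMEL28 (log2 fold change 2.15 ± 0.15). In the HOXD cluster the order turned within the cluster: HOXD3 stood at 0.66 and 0.836 CPM in A375, against 5.67 and 6.33 in SKMEL28 (log2 fold change -2.98 ± 0.37) and HOXD9 at 6.73 and 7.4 CPM in A375, against 0.587 and 0.597 in SKMEL28 (log2 fold change 3.54 ± 0.42).

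Several S100 genes, small calcium-binding proteins, were higher in A375, while S100B was lower. S100A4, which is linked to cell motility, stood at 146 and 153 CPM in A375, against 0.391 and 0.358 in SKMEL28 (log2 fold change 8.59 ± 0.21), and S100A6, calcyclin, at 1182 and 1072 CPM in A375, against 39.1 and 40.7 in SKMEL28 (log2 fold change 4.81 ± 0.10). S100A16 stood at 233 and 256 CPM in A375, against 1.37 and 1.91 in SKMEL28 (log2 fold change 7.15 ± 0.16). Of 23 S100 and annexin genes tested, 10 were higher and 7 lower in A375 (8 and 4 beyond 2-fold), with a median of 0.22, and 0.03 without A375 replicate 1. ANXA1, annexin A1, stood at 1162 and 1129 CPM in A375, against 294 and 299.6 in SKMEL28 (log2 fold change 1.95 ± 0.08), while ANXA5, annexin A5, stood at 393 and 365 CPM in A375, against 1207 and 1234 in SKMEL28 (log2 fold change -1.69 ± 0.08).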
